A study of Mus musculus with 20 samples.

Results

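The hearts of mice fed rosuvastatin were set against the hearts of mice fed atorvastatin. All arrays titled for either drug were used, which gave 8 of the 20 arrays of the study, 4 per drug, with 1 array for each mouse. The study gave statins to male C57BL/6J mice without a disease model, bought at 6 weeks of age and kept for 2 weeks before treatment. Powdered tablets were mixed into standard chow for 4 weeks, so what else the tablets held was given too. The rosuvastatin group took rosuvastatin calcium (Crestor) at 10.9 mg/kg/day, the atorvastatin group took atorvastatin calcium hydrate (Lipitor) at 11.4 mg/kg/day, and 4 control mice ate chow without a statin. The doses differ, and they were worked out from food consumption. RNA of the left ventricle, the main pumping chamber, was amplified from 100 ng and read on a mouse expression array that measures transcripts with probe sets, some of which read several transcripts or genes. Left ventricle is a mixed tissue, so fewer cells of a type and less RNA per cell cannot be told apart in these values.

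Statins block the making of mevalonate. Mevalonate feeds cholesterol synthesis and also the side branches that make coenzyme Q, dolichol and the lipid anchors of small GTPases. Cells short of sterol switch on the transcription factor SREBP2, which raises the genes of this pathway and of sterol uptake. Rosuvastatin and atorvastatin share a dihydroxy acid chain, a fluorophenyl ring and an isopropyl group. They differ in the core that carries these groups: a pyrimidine with a methylsulfonamide in rosuvastatin, which is the more hydrophilic drug, and a pyrrole with a phenyl amide in atorvastatin, which is the more lipophilic. Both act mainly on the liver, and the heart relies on fatty acid oxidation for most of its fuel.

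The arrays of both drugs differed in brightness from mouse to mouse. The log2 of the median signal was 6.17, 6.39, 5.38 and 6.42 in rosuvastatin mice 1 to 4. It was 6.03, 7.17, 6.27 and 6.31 in atorvastatin mice 1 to 4 and lay between 6.33 and 6.90 in the controls. Rosuvastatin mouse 3 was thus the dimmest of the study and atorvastatin mouse 2 the brightest, while the other 6 arrays lay between 6.03 and 6.42. The group means were 6.09 ± 0.48 and 6.44 ± 0.50 (SD, n = 4), a difference of -0.36 (two-sided exact permutation p = 0.486, adjusted 0.849 over 11 array measures, smallest p possible 0.0286). It was -0.12 without rosuvastatin mouse 3, and also without atorvastatin mouse 2. The other 10 measures had adjusted exact permutation p-values of 0.849 or 0.857, among them the 3' to 5' log2 difference of Gapdh, at 0.73 ± 0.13 and 0.74 ± 0.12 (SD, n = 4). The trimmed mean signal was 500.003 or 500.004 on each of these arrays, so the medians differ at an equal trimmed mean. Over all 20 arrays the leading principal component held 56.6% of the variance, with rosuvastatin mouse 3 at its lowest end and atorvastatin mouse 2 at its highest.

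**Figure D1:**
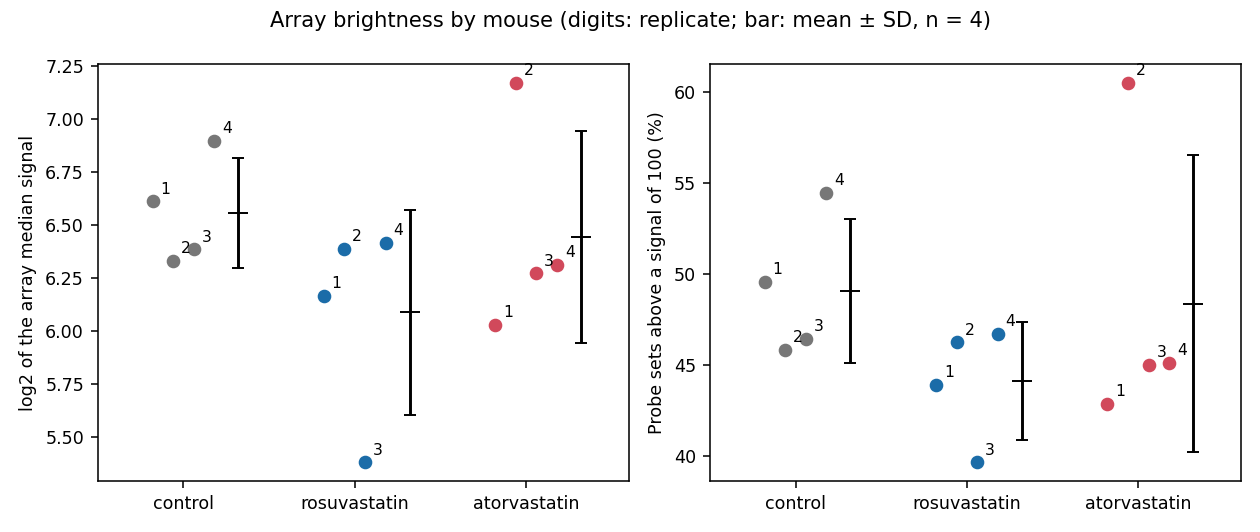
Log2 of the array median signal (left) and percent of probe sets above a signal of 100 (right) for the control, rosuvastatin and atorvastatin mice; points are mice with their replicate number, bars the mean ± SD (n = 4). Rosuvastatin 3 at 5.38 is the lowest median and atorvastatin 2 at 7.17 the highest, and atorvastatin 2 has 60.5% of probe sets above 100.

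No probe set passed the test between the drugs. With limma on log2(signal + 16), 0 of 22518 probe sets (0%) reached a Benjamini-Hochberg adjusted p of 0.05, and the smallest adjusted p was 0.386. At an unadjusted p under 0.05 there were 1236 (5.49%), 639 of them higher in rosuvastatin hearts (2.84%) and 597 lower (2.65%). The 4 values of each drug did not overlap for 413 probe sets (1.83%), 236 higher (1.05%) and 177 lower (0.786%). Over all probe sets the median difference, rosuvastatin minus atorvastatin, was -0.02 on the log2 scale, the median absolute difference 0.14 and the median half-width of the 95% interval 0.36. A p that misses the threshold does not show that the drugs act alike, and the typical interval still allows differences of that width in either direction. The gene lists below read each gene by 1 probe set, so shares over all probe sets are not on the same basis. With 1 probe set per gene the median difference was 0.01. An unadjusted limma p under 0.05 was then reached by 397 of 11229 higher and 244 lower.

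With the log2 array median in the model as a covariate the fit again called 0 of 22518 probe sets, with a smallest adjusted limma p of 0.480. The count at an unadjusted p under 0.05 was 977 (4.34%), 461 higher (2.05%) and 516 lower (2.29%). The individual differences moved more than the counts: across probe sets, which are not independent replicates, those with and without the covariate had a correlation of 0.51. Differences beyond 2-fold either way numbered 180 (0.799%) without the covariate and 11 (0.0488%) with it. Of the 180 differences, 179 were lower in rosuvastatin hearts, and in 172 the log2 signal changed by more than 1 per unit of log2 array median. A value in parentheses after a difference is that with the covariate unless it is given as a 95% interval. No gene below had an adjusted limma p under 0.386 without the covariate or under 0.480 with it.

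**Figure D2:**
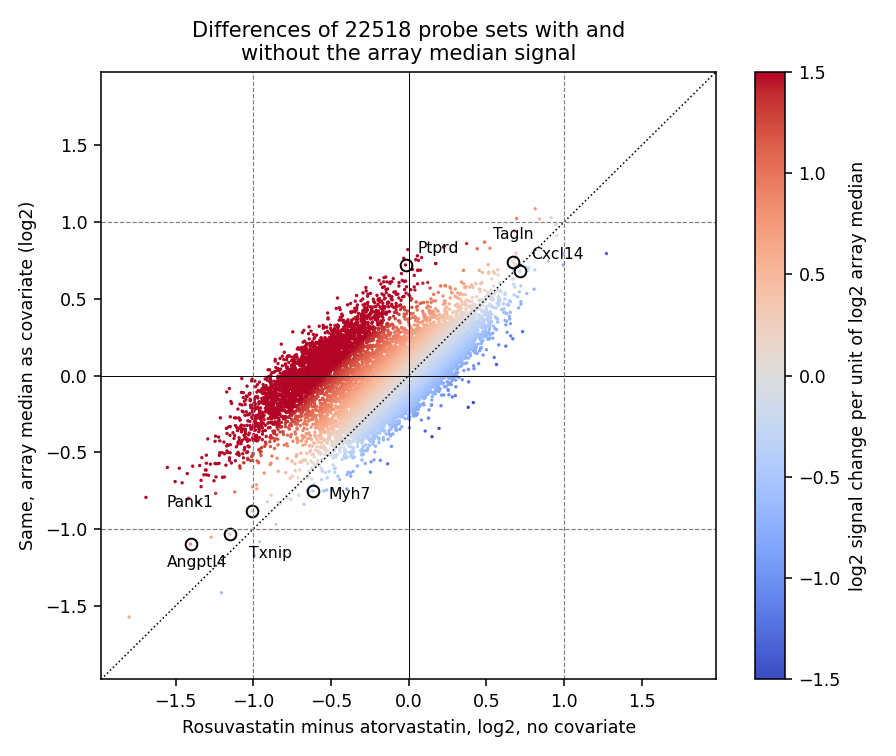
Log2 difference of each of 22518 probe sets, rosuvastatin minus atorvastatin, without (x axis) and with (y axis) the array median as covariate; the colour is the log2 signal change per unit of log2 array median, dashed lines mark 2-fold, and the dotted line marks equal values. The red points, which follow the array median most steeply, leave the negative side once the covariate enters, while Angptl4, Txnip, Pank1, Myh7, Tagln and Cxcl14 stay near the dotted line.

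Against the shared control hearts the drugs can only be set side by side. Rosuvastatin against control had 2469 probe sets at an unadjusted limma p under 0.05 (11%) and atorvastatin against control 1028 (4.57%), and neither had a probe set past the adjusted threshold. The same 4 control mice enter both numbers. Both fits are without the covariate, and the mean log2 array median was 6.56 in controls beside 6.09 with rosuvastatin and 6.44 with atorvastatin. The part of array brightness in these counts was not tested.

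Genes of the pathway that statins block showed no common direction. Of 20 cholesterol synthesis genes listed, 15 were measured, 8 were higher and 7 lower in rosuvastatin hearts, limma gave 0 with an unadjusted p under 0.05, and the median difference was 0.04, beside 46.3% higher and a median of -0.02 over all probe sets. With the covariate 2 had an unadjusted p under 0.05, both lower, beside 2.29% of all probe sets in that fit. Then 7 of 15 were higher, and the median was -0.06. Without the covariate it was 0.0065 when rosuvastatin mouse 3 was left out, -0.07 without atorvastatin mouse 2 and -0.16 without both mice. Hmgcs1, a synthase of the first steps of the pathway, read 12.93, 12.97, 12.87 and 12.98 with rosuvastatin and 12.90, 12.58, 12.81 and 13.31 with atorvastatin, against 12.69 to 12.92 in controls. The 4 rosuvastatin values sit inside the atorvastatin range. Its difference was 0.04 (95% interval -0.19 to 0.27) without and 0.02 with the covariate, and its other 3 probe sets gave 0.04 to 0.10. Sqle, the squalene epoxidase, differed by -0.21 (-0.70 to 0.28), and by -0.14 with the covariate. Idi1, which isomerises the isoprene building block, differed by 0.04 (-0.23 to 0.31), and by 0.19 with the covariate. Insig1, a brake on the pathway, differed by -0.16 (-0.44 to 0.12), and by -0.22 with the covariate. Intervals of this width leave room for modest differences either way. Nsdhl and Sc5d, enzymes of the late sterol steps, had the lowest differences of the list at -0.27 and -0.26 (-0.25 and -0.37), and Ebp the highest at 0.20 (0.10). A dimmer probe set of Sc5d gave 0.13 (0.08).

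Of 16 measured genes of sterol sensing and uptake 7 were higher, with a median of -0.03 (-0.07 with the covariate, -0.02 without rosuvastatin mouse 3 and -0.05 without atorvastatin mouse 2). An unadjusted limma p under 0.05 was reached by 1 higher and 3 lower genes, beside 2.84% and 2.65% of all probe sets. Nr1h3, the oxysterol receptor LXR alpha, read 6.86, 7.31, 7.35 and 6.99 with rosuvastatin and 6.92, 6.07, 6.72 and 6.68 with atorvastatin, a difference of 0.53 (0.06 to 0.99) with overlapping groups, and 0.38 with the covariate. Srebf1, a lipid synthesis regulator, differed by -0.29 (-0.34 with the covariate), and Npc1, which exports cholesterol from lysosomes, by -0.30 (-0.18).

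In the coenzyme Q and dolichol branches of the mevalonate pathway 11 of 14 genes were higher with rosuvastatin, beside 46.3% of all probe sets, with a median of 0.12. With the covariate 10 of 14 were higher with a median of 0.05, and the median was also 0.05 without atorvastatin mouse 2 and 0.04 without both extreme arrays. Nus1, a subunit of the dolichol-making prenyltransferase, read 11.40, 11.26, 11.55 and 11.29 with rosuvastatin and 11.24, 11.11, 11.11 and 11.17 with atorvastatin. These groups do not overlap, by a margin of hundredths, and the difference was 0.22 (0.17 with the covariate), while its other 5 probe sets ran from -0.07 to 0.34. Coq10a, a coenzyme Q binding protein of mitochondria, differed by 0.29 (0.20). Icmt, the methyltransferase that finishes prenylated proteins, differed by 0.23 (0.16).

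Transporters and enzymes that can handle statins had 10 of 12 measured genes lower in rosuvastatin hearts, 11 of 12 with the covariate, with medians of -0.11 and -0.14. Abcb1b, a P-glycoprotein efflux pump, read 8.44, 8.31, 8.45 and 8.17 with rosuvastatin and 8.72, 8.74, 8.69 and 8.64 with atorvastatin, while controls ran from 8.21 to 8.83. The drug groups do not overlap, and all but rosuvastatin mouse 4 fall inside the control range. The difference was -0.35 (-0.64 to -0.07), and -0.39 with the covariate. Abcc5, an efflux pump for organic anions, differed by -0.33 (-0.22 with the covariate), also without overlap, and its dimmer probe sets by -0.25 and -0.07 (-0.20 and -0.05).

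In the fasting and fatty acid response 3 of 17 genes had an unadjusted p under 0.05, all lower in rosuvastatin hearts, beside 2.65% of all probe sets. The list as a whole had 7 higher and 10 lower and a median of -0.08, and 5 higher with the same median with the covariate. Without rosuvastatin mouse 3 the median was -0.04. Angptl4, a secreted inhibitor of lipoprotein lipase that PPAR factors and glucocorticoids induce, read 6.97, 7.60, 6.85 and 7.97 in rosuvastatin mice. It read 8.56, 9.60, 8.57 and 8.27 in atorvastatin mice and 9.17, 8.99, 7.30 and 8.12 in controls. Every rosuvastatin value lay below every atorvastatin value, and the controls lay among both. The difference was -1.40 (-2.31 to -0.50), a 0.378-fold level, with an adjusted limma p of 0.749. With the covariate it was -1.10, and without the dimmest and the brightest array -0.96.

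Txnip, which binds thioredoxin and holds back glucose uptake, was read by a pair of probe sets that gave the same direction. The brighter one read 12.92, 13.22, 12.83 and 12.80 with rosuvastatin and 13.45, 14.14, 13.69 and 13.80 with atorvastatin. The controls split, with mice 1 and 2 at 13.71 and 13.77, near atorvastatin, and mice 3 and 4 at 12.91 and 12.45, near or below rosuvastatin. The difference was -0.83 (-1.37 to -0.28) without and -0.83 with the covariate, and -1.15 and -1.03 for the dimmer probe set, with no overlap between the drugs in either. Acot1, a cytosolic acyl-CoA thioesterase that PPAR alpha induces, read 9.98, 9.32, 9.49 and 9.28 against 10.69, 10.13, 9.95 and 9.87, overlapping only through rosuvastatin mouse 1. Its difference was -0.64, and -0.75 with the covariate. Pdk4, the kinase that shuts pyruvate dehydrogenase in fasting, did not go with them: it differed by -0.27 (-0.69 to 0.14), by -0.06 with the covariate and by 0.07 without the 2 extreme arrays.

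The stretch before the Txnip start site is shown because both its probe sets kept the groups apart. It covers chr3:96557707-96557956 on the plus strand of GRCm38.p6, from RefSeq, and capitals mark the CCAAT box (CCAAT, either strand), which 33.8% of 32851 promoter windows of this length hold.
Txnip: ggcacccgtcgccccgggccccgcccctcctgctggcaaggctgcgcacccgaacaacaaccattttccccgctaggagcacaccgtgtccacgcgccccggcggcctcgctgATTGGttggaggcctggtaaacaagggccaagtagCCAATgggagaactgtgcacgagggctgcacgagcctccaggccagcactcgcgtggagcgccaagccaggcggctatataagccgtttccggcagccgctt
The matches start at -137 and -102, counted from the start site. The palindromic E-box CACGTG, in 6.02% of the windows, is not among these letters. Imperfect E-boxes, which differ from CACGTG, were not searched for.

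Pank1, a pantothenate kinase that starts the making of coenzyme A, had the smallest p of all probe sets. Its dimmest probe set read 7.32, 7.59, 7.05 and 7.72 with rosuvastatin, 8.48, 8.78, 8.23 and 8.22 with atorvastatin and 7.51 to 8.06 in controls. The drugs do not overlap, and the controls, all below atorvastatin, overlap rosuvastatin. The difference was -1.01 (-1.38 to -0.64), a 0.497-fold level, with an adjusted limma p of 0.386, and -0.88 with the covariate. The brighter 3 of its 4 probe sets differed by -0.18 to -0.23 with overlapping groups. The values therefore describe what 1 probe set reads, and not all Pank1 transcripts.

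In glucose use, 10 of 17 genes were higher with a median of 0.03, and 13 of 17 with a median of 0.09 with the covariate. Without rosuvastatin mouse 3 the median was 0.09. Pgam1, a phosphoglycerate mutase of glycolysis, read 12.30, 12.19, 12.46 and 12.24 with rosuvastatin and 11.91, 11.33, 11.70 and 11.91 with atorvastatin. All rosuvastatin values lie above all atorvastatin values and above 3 of the 4 controls, which ran from 11.64 to 12.22. The difference was 0.59 (0.31 to 0.86), with an adjusted limma p of 0.749, and 0.49 with the covariate. Slc2a4, the insulin-responsive glucose carrier GLUT4, read 12.94, 13.10, 13.15 and 12.96 against 12.70, 12.61, 12.90 and 12.84. Here too the drugs do not overlap, though narrowly, and the difference was 0.28 (0.11 to 0.45) and 0.22 with the covariate. A dimmer probe set gave 0.12 (0.09) with overlap.

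**Figure D3:**
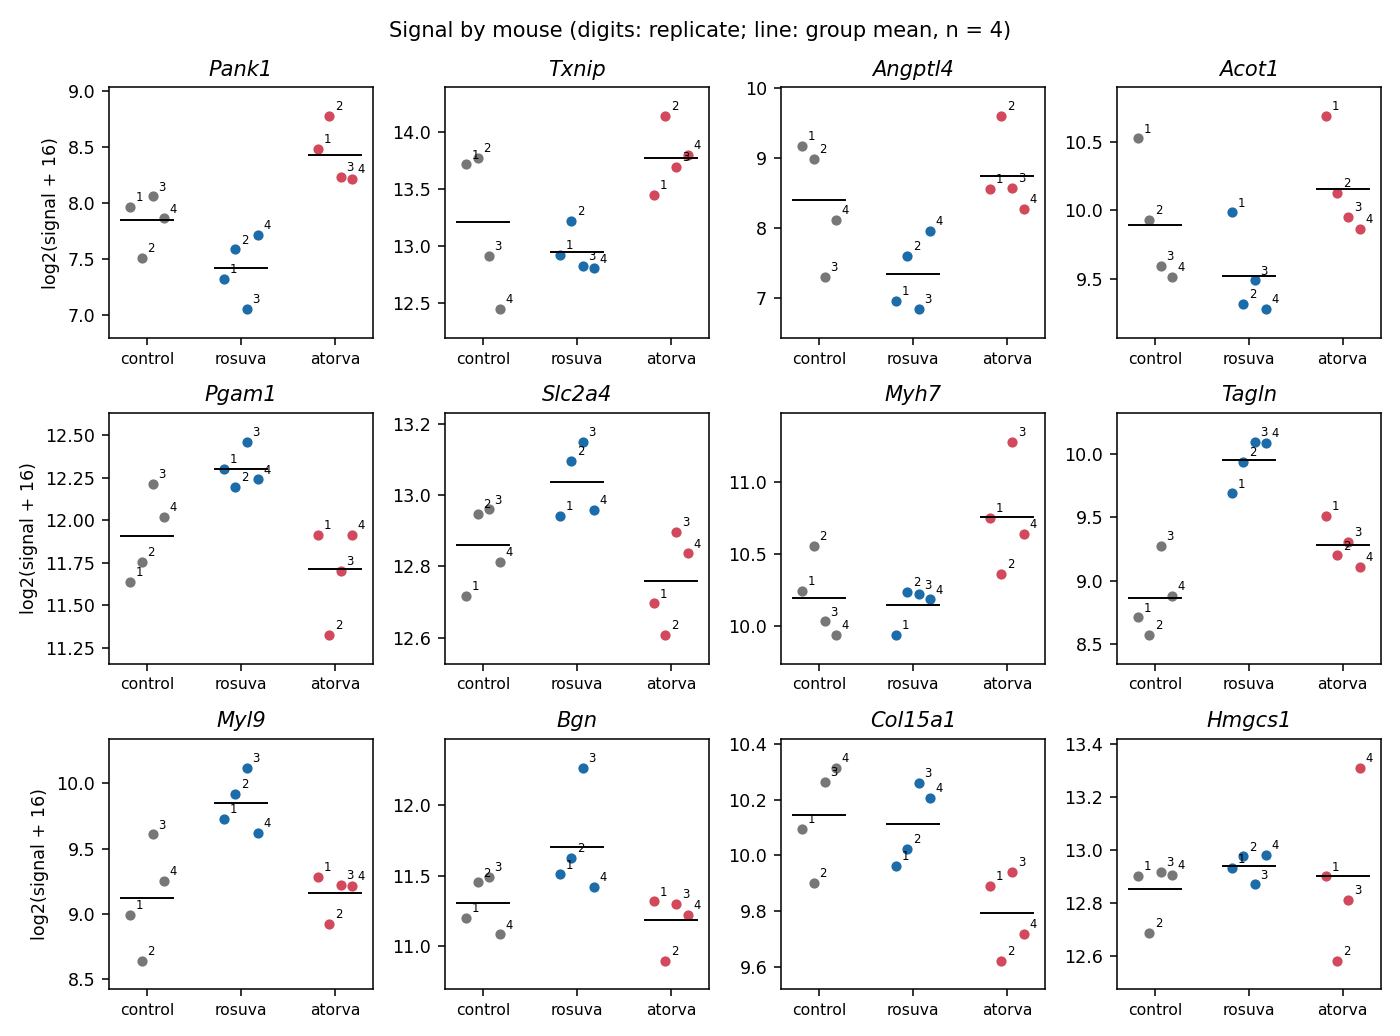
Log2(signal + 16) of 12 genes in each control, rosuvastatin and atorvastatin mouse; digits are replicate numbers and lines group means (n = 4). Rosuvastatin and atorvastatin mice do not overlap for Pank1, Txnip, Angptl4, Pgam1, Slc2a4, Myh7, Tagln, Myl9, Bgn and Col15a1, and they do for Acot1 and Hmgcs1.

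For genes of the contractile and oxidative machinery the direction depended on the covariate. Of 38 genes of respiratory complexes II to V, 15 were higher in rosuvastatin hearts with a median of -0.01, and 37 were higher with a median of 0.13 once the array median was in the model, beside 49.9% higher over all probe sets. Complex I subunits went from 21 to 33 of 33 higher (medians 0.01 and 0.11), sarcomere genes from 7 to 18 of 21 (-0.03 and 0.13), citric acid cycle genes from 7 to 15 of 18 (-0.03 and 0.10), and fatty acid oxidation genes from 9 to 18 of 21 (-0.01 and 0.09). Cardiomyocyte markers went from 4 to 18 of 19 (-0.04 and 0.14), and their median was 0.11 without rosuvastatin mouse 3, 0.04 without atorvastatin mouse 2 and 0.19 without both. Leaving out either mouse also gave the other 5 lists medians above 0, from 0.09 to 0.12 without rosuvastatin mouse 3 and from 0.0096 to 0.05 without atorvastatin mouse 2. With the covariate limma gave 0 genes of these 6 lists that were higher at an unadjusted p under 0.05, beside 2.05% of all probe sets.

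The mean of complexes II to V was 14.02, 14.60, 13.82 and 14.30 in rosuvastatin mice and 13.80, 14.36, 14.07 and 14.64 in atorvastatin mice, so the groups overlap almost wholly. The log2 signal that 1 probe set in 1000 exceeds ran in the same order within each drug, at 14.63, 15.36, 14.32 and 14.96 and at 14.37, 15.12, 14.62 and 15.45. The part of that top end of the scale in the list values was not tested. Within the lists, Pdhx, the E3-binding protein of pyruvate dehydrogenase, differed by 0.33 (0.21 with the covariate), Dlst of the oxoglutarate dehydrogenase by 0.23 (0.15), and Eci2, an enoyl-CoA isomerase of fatty acid oxidation, by 0.29 (0.19). Myh6, the main myosin of the adult mouse ventricle, read 14.72, 15.58, 14.39 and 15.10 against 14.38, 15.32, 14.82 and 15.71, a difference of -0.11 (-0.61 to 0.39) and 0.13 with the covariate. Cox7c, a subunit of cytochrome oxidase, differed by -0.70 (-0.62), read by a dim probe set at 6.89 to 7.10 against 7.39 to 8.12.

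Of 15 measured smooth muscle and pericyte markers 12 were higher (9 with the covariate), and the median was 0.21 in both fits and 0.10 without the 2 extreme arrays. Tagln, the actin-binding protein SM22 of smooth muscle, read 9.69, 9.94, 10.09 and 10.08 with rosuvastatin, 9.51, 9.20, 9.31 and 9.10 with atorvastatin and 8.71, 8.57, 9.28 and 8.88 in controls. The drugs do not overlap, and the rosuvastatin mice lie above all controls. The difference was 0.67 (0.13 to 1.21), 1.59-fold, with an adjusted limma p of 0.749, and 0.74 with the covariate. Myl9, the regulatory light chain of smooth muscle myosin, read 9.73, 9.92, 10.12 and 9.62 against 9.28, 8.92, 9.22 and 9.21, with controls from 8.64 to 9.61. Again the groups are apart, and the difference was 0.68 (0.71 with the covariate).

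Other actin-linked genes gave a less even picture across their probe sets. Tpm2, a tropomyosin, had 4 probe sets with differences from 0.16 to 0.92 (0.05 to 1.03). Csrp2, a LIM protein of smooth muscle, read 9.43, 9.39, 10.06 and 9.80 against 9.29, 8.57, 9.13 and 8.96, a difference of 0.68 (0.58 with the covariate). Cald1, caldesmon, differed by 0.59 (0.60) for 1 probe set and by 0.03 (0.02) for its brightest. Enah, a regulator of actin filaments, differed by 0.60 (0.43), and by 0.33 without rosuvastatin mouse 3, which read 9.57 beside 8.50 to 8.53 in the other 3, and its other 4 probe sets ran from -0.11 to 0.15. Acta2 and Myh11, the defining smooth muscle actin and myosin, differed by 0.34 and 0.28 (0.44 and 0.41 with the covariate) with unadjusted limma p-values of 0.245 and 0.187, and a dim second probe set of Myh11 gave -1.30 (-0.65). Pericyte genes such as Pdgfrb, Rgs5 and Kcnj8 gave 0.08, -0.03 and 0.07 (-0.03, 0.07 and -0.07), and a dimmer probe set of Pdgfrb 0.38 (0.14).

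The bases before the Myl9 start site are printed because serum response factor, the textbook regulator of smooth muscle genes, reads the CArG box. They cover chr2:156775214-156775463 on the plus strand of GRCm38.p6, from RefSeq, with the CArG box in capitals.
Myl9: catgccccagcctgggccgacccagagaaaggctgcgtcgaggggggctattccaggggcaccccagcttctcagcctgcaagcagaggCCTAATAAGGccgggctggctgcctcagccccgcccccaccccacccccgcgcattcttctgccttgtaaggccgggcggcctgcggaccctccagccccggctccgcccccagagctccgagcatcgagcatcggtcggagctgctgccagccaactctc
The match starts at -161 from the start site. Of all 32851 windows 1.47% hold a CArG box, and the windows of Tpm2, Cald1 and Enah hold none. Tagln and Csrp2 had no window to search. A match describes letters and says nothing of binding in these hearts.

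Of 37 extracellular matrix and fibrosis genes, 29 were higher in rosuvastatin hearts with a median of 0.13, and 10 had an unadjusted p under 0.05, all of them higher, beside 2.84% of all probe sets. With 1 probe set per gene, as the lists are read, 397 of 11229 were higher at that unadjusted limma p. With the covariate 24 of the 37 were higher and the median was 0.08. An unadjusted p under 0.05 was then reached by 4, all of them higher, beside 2.05% of all probe sets. Without atorvastatin mouse 2 the median was 0.07, and without the 2 extreme arrays 0.05. Bgn, the matrix proteoglycan biglycan, read 11.51, 11.63, 12.27 and 11.42 with rosuvastatin and 11.32, 10.90, 11.30 and 11.22 with atorvastatin, with controls from 11.08 to 11.49. The groups are narrowly apart, with rosuvastatin mouse 3 highest and atorvastatin mouse 2 lowest, and the difference was 0.52 (0.18 to 0.86), 0.33 with the covariate and 0.24 without those mice. Col15a1, a basement membrane collagen, read 9.96, 10.02, 10.26 and 10.21 against 9.89, 9.62, 9.94 and 9.72, a difference of 0.32 (0.28 with the covariate). There the rosuvastatin mice match the controls at 9.90 to 10.32, and the atorvastatin mice are the lower group.

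Col5a2, a fibrillar collagen, differed by 0.45 (0.37 with the covariate), and the main collagens Col3a1 and Col1a2 by 0.29 and 0.27 (0.21 and 0.20). Dimmer probe sets of Col5a2, Col3a1 and Col1a2 gave 0.12, 0.03 and 0.17. P4ha1, a prolyl hydroxylase that collagen needs to fold, differed by 0.68 (0.52) on its brighter probe set and by -0.26 (0.12) on the other. Fibroblast markers, which share Col1a1, Col1a2, Col3a1, Dcn and Lum with the matrix list, had 13 of 16 higher with medians of 0.25 and 0.13, and of 0.16 without rosuvastatin mouse 3, 0.14 without atorvastatin mouse 2 and 0.07 without both. Their mean per mouse was 10.54, 10.58, 10.68 and 10.63 with rosuvastatin and 10.65, 10.28, 10.51 and 10.40 with atorvastatin, so the groups overlap through atorvastatin mouse 1. Ccn2, a matrix gene that mechanical load and TGF beta induce, was the lowest of the matrix list at -0.27 (-0.37).

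**Figure D4:**
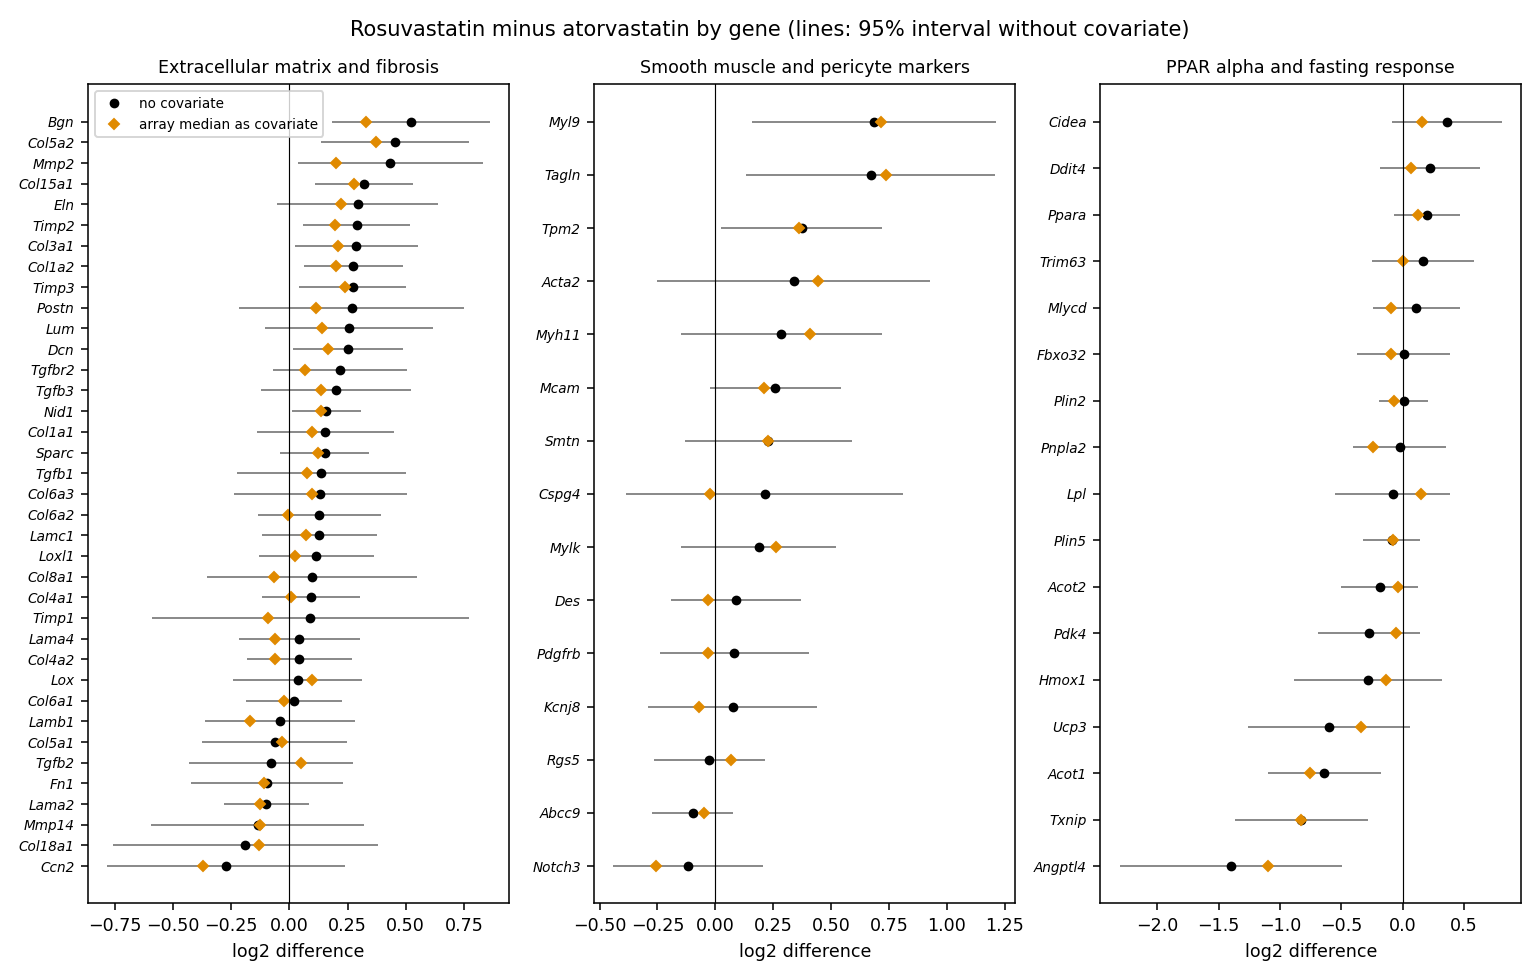
Log2 difference, rosuvastatin minus atorvastatin, of each measured gene of the matrix, smooth muscle and fasting lists; black points with 95% intervals are without, orange diamonds with the array median as covariate. In the matrix list 29 of 37 black points lie right of 0, and in the fasting list Angptl4 at -1.40, Txnip at -0.83 and Acot1 at -0.64 have intervals clear of 0.

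Genes of the fetal and stress programme showed no common direction. Myh7, the slow myosin of the fetal and loaded mouse ventricle, read 9.94, 10.24, 10.22 and 10.18 with rosuvastatin, 10.75, 10.36, 11.28 and 10.64 with atorvastatin and 9.94 to 10.55 in controls. The drugs do not overlap, and it is the atorvastatin mice that mostly exceed the controls. The difference was -0.62 (-1.003 to -0.23), 0.652-fold, with an adjusted limma p of 0.749, and -0.75 with the covariate. Nppb, the natriuretic peptide BNP, had the opposite sign at 0.46 (0.03 to 0.90; 0.24 with the covariate), reading 13.29, 13.12, 13.44 and 12.74 against 13.00, 12.21, 12.85 and 12.67 with overlap. Nppa, the peptide ANP, differed by 0.36 (0.17). The list had 9 of 13 genes higher and a median of 0.27, which was 0.05 with the covariate, -0.0028 without rosuvastatin mouse 3 and 0.07 without atorvastatin mouse 2.

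A few atrial genes had their highest values of the 8 mice in rosuvastatin mouse 3, and others did not. Myl4, the atrial essential light chain, read 9.20, 8.90, 11.58 and 9.01 with rosuvastatin and 8.82 to 9.28 with atorvastatin, while control mouse 1 was at 10.30. Myl7, the atrial regulatory light chain, was too dim to be tested and had signals of 57.5, 9.52, 1259 and 3.70 with rosuvastatin, 7.18 to 66.7 with atorvastatin and 3.12 to 296 in controls. Sln, sarcolipin of atrial muscle, had a signal of 298 in rosuvastatin mouse 3 and 2.91 to 60.7 in the other 7 mice on one of its probe sets, but 15.4 there and up to 139 in atorvastatin mouse 2 on the other. Dkk3, of the atrial and conduction list, read 7.81 in rosuvastatin mouse 3 and 6.05 to 7.08 in the other 7 mice. Mybphl, an atrial gene too dim to be tested, had a signal of 39.6 there and 4.30 to 29.4 in the other 7. Bmp10, a hormone of the atria, had a signal of 0.843 in rosuvastatin mouse 3. Nppa at 13.12, Tbx3 at 9.07, Stard10 at 7.84 and Fgf12 at 6.08 were not the highest of the 8 there. Atrial and conduction markers had a median of 0.27 over 6 measured genes, 0.18 with the covariate, 0.08 without rosuvastatin mouse 3 and 0.13 without atorvastatin mouse 2. The part of atrial tissue in the values of that mouse was not tested.

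Chaperones were higher with rosuvastatin in 18 of 20 genes, with a median of 0.15, and in 17 with a median of 0.14 with the covariate. The median was 0.10 without atorvastatin mouse 2 and 0.08 without both extreme arrays. Hspa4l, a cofactor of the HSP70 family, read 11.04, 10.91, 11.31 and 10.90 against 10.83, 10.59, 10.81 and 10.62, narrowly apart. Its difference was 0.32 (0.10 to 0.55) and 0.22 with the covariate, and Dnajb4 and Chordc1, cochaperones, gave 0.29 and 0.22 (0.17 and 0.15). Proteasome subunits were higher in 28 of 31 genes with a median of 0.11, and in 23 with a median of 0.04 with the covariate. Without the covariate the median was 0.07 when rosuvastatin mouse 3 was left out, 0.04 without atorvastatin mouse 2 and 0.03 without both. Psmb5, the chymotrypsin-like subunit, had the highest difference among them at 0.28 (0.22). Atf4, the factor of the amino acid response, differed by 0.39 (0.17), and by 0.12 (0.02) on a second probe set, in a list with 11 of 21 genes higher.

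Antigen presentation by MHC class I was higher in 11 of 15 genes, with medians of 0.16 and 0.12. H2-D1, a class I heavy chain, read 11.07, 11.07, 11.22 and 11.11 with rosuvastatin and 10.81, 10.67, 10.91 and 10.82 with atorvastatin, a difference of 0.31 (0.20 with the covariate) without overlap. H2-K1, another, read 10.98 to 11.11 against 10.56 to 10.87 and differed by 0.27 (0.18). The controls ran from 10.68 to 11.22 for H2-D1, across nearly the whole span of both drugs. Class I heavy chains are near copies of each other and their probes can share signal. Interferon genes had 15 of 20 higher and a median of 0.11, which was 0.0025 with the covariate and 0.06 without rosuvastatin mouse 3.

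Ion channels, clock and splicing genes showed no common direction. Kcnd3, a channel of the transient outward potassium current, read 10.54, 10.69, 10.59 and 10.52 against 10.91, 10.66, 10.76 and 11.26, a difference of -0.31 (-0.55 to -0.07; -0.37 with the covariate) with atorvastatin mouse 4 highest. Of 18 channel genes 7 were higher, with medians of -0.03 and -0.05, and of -0.0081 without rosuvastatin mouse 3 and -0.11 without atorvastatin mouse 2. In the clock list 6 of 16 were higher, with a median of -0.06 that was -0.0012 without rosuvastatin mouse 3. Dbp was at -0.15 (0.08), Nr1d1 at -0.04 (-0.13) and Arntl at 0.27 (0.09), each with overlapping groups. Srsf3 and Srsf1, splicing factors of the SR family, differed by 0.31 and 0.28 (0.24 and 0.18) and Hnrnpl by -0.41 (-0.32), in a list with 18 of 37 higher. The other probe sets of Srsf1 ran from 0.05 to 0.14 and those of Srsf3 from -0.38 to 0.29. Med1, the nuclear receptor subunit of Mediator, differed by -0.02 (-0.04) on its brightest probe set. Another gave 0.33 (0.28) without overlap and an unadjusted limma p of 0.0201, and the other 3 gave -0.83 to -0.06 (-0.22 to 0.40). Of 31 Mediator genes 22 were higher, with medians of 0.07 and 0.02, of 0.03 with either extreme mouse left out and of -0.01 without both.

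**Figure D5:**
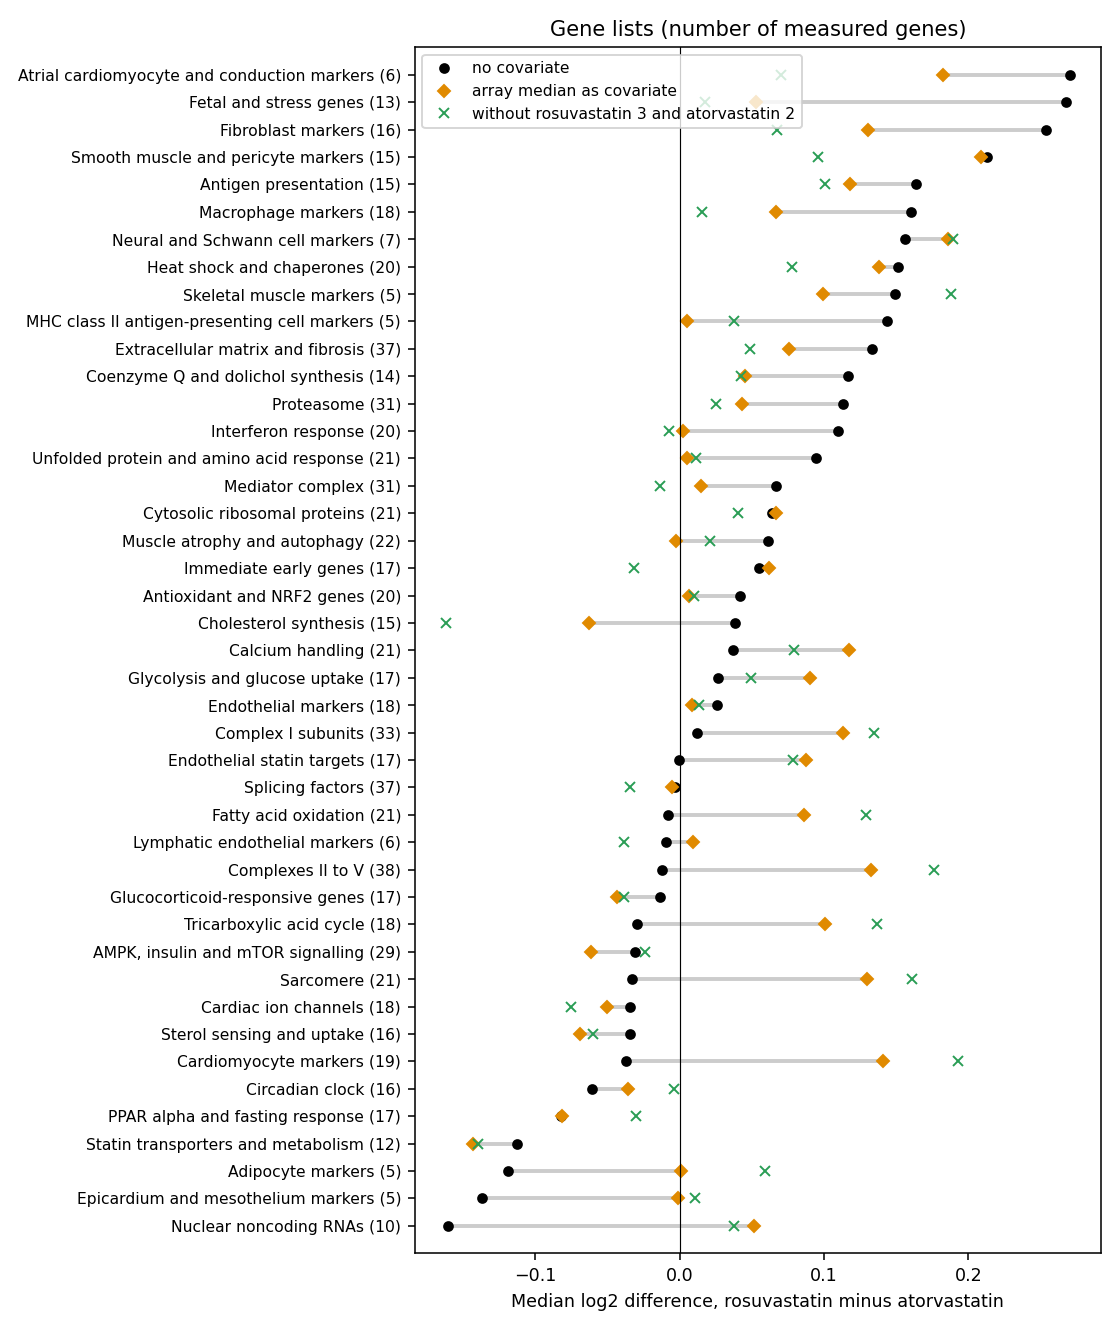
Median log2 difference, rosuvastatin minus atorvastatin, of gene lists with 5 or more measured genes; black circles are without, orange diamonds with the array median as covariate, and green crosses without the dimmest and the brightest array. Cardiomyocyte, sarcomere and respiratory lists cross from just below 0 or near it to between 0.11 and 0.14, while smooth muscle markers stay at 0.21 under both fits.

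Markers of other cells gave the following levels. Macrophage markers were higher in 14 of 18 genes (medians 0.16 and 0.07, and 0.05 without rosuvastatin mouse 3 and 0.09 without atorvastatin mouse 2), with summed signals of 30132 to 34234 with rosuvastatin and 23632 to 32408 with atorvastatin. Folr2, of resident macrophages, differed by 0.49 (0.48 with the covariate), and Ccr2, of recruited ones, by -0.66 (-0.38). Without the 2 extreme arrays Folr2 was at 0.41 and Ccr2 at -0.17. Other genes of resident macrophages did not share a direction, with Lyve1 at 0.16 (0.12), Timd4 at -0.49 (-0.16) and Mertk at -0.38 (-0.27). Endothelial markers had 10 of 18 higher and a median of 0.03, which was 0.0095 without atorvastatin mouse 2. Neutrophil genes S100a9 and S100a8 differed by -0.44 and -0.40 (-0.68 and -0.64), with atorvastatin mouse 1 highest at 9.41 and 9.46. Only 3 of 14 lymphocyte genes on the array were bright enough to test. Skeletal muscle Myh4 stayed at signals of 0.928 to 81.6 on both its probe sets and adipocyte Adipoq at 12.8 to 62.4 in the 8 mice, below the signal of 81.8 that a probe set needed on average to be tested. Ckm, the muscle creatine kinase, and Nkx2-5, a cardiac transcription factor, were the highest of the cardiomyocyte markers at 0.26 and 0.27 (0.20 and 0.16). Myh6, a defining ventricular gene, lay near the top of the signal scale in every mouse.

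The remaining named genes belong to no list above. They had the largest differences among the 100 smallest p-values, with or without the covariate, or among bright genes whose groups do not overlap. On the low side, Sema4b, a membrane semaphorin, read 9.43, 8.76, 9.28 and 9.29 with rosuvastatin, 10.43, 9.97, 10.56 and 9.64 with atorvastatin and 8.99 to 9.67 in controls. The atorvastatin mice are apart from the rosuvastatin mice and mostly above the controls, and the difference was -0.96 (-1.08 with the covariate). Bcl2l11, the death-promoting protein BIM, differed by -0.61 and -0.52 in its 2 probe sets (-0.71 and -0.49 with the covariate). Rasgef1b, an exchange factor for Ras-like GTPases, differed by -0.65 (-0.66), Mir22hg, the host transcript of a microRNA, by -0.60 (-0.59), Washc1, of the WASH actin complex, by -0.71 (-0.78), and Ift88, of ciliary transport, by -0.85 (-0.97). Scn3a, Fam161a, Mblac1, Yy1 and Dgke ran from -0.79 to -0.73, and from -0.63 to -0.40 with the covariate. For Yy1 and Dgke these are the dimmest probe sets: the 3 brighter ones of Yy1 gave -0.06 to 0.06 and the 2 of Dgke -0.29 and -0.10.

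On the high side, Cxcl14, a chemokine, read 8.99, 9.47, 8.91 and 9.51 with rosuvastatin, 8.67, 8.16, 8.70 and 8.49 with atorvastatin and 8.29 to 9.29 in controls. The drugs do not overlap, and a second probe set gave 0.53 beside the 0.71 (0.31 to 1.12) of the first, with 0.52 and 0.68 under the covariate. Mon2, of endosome traffic, differed by 0.54 (0.63) on one probe set and by -0.08 (-0.04) on another. Adipor2, an adiponectin receptor, differed by 0.54 (0.51) on a dim probe set and by 0.09 (0.03) on a brighter one. Mn1 differed by 0.54 (0.45), Itgbl1 by 0.58 (0.51), Pgap4, of GPI anchor assembly, by 0.63 (0.46), and Qrsl1, of mitochondrial tRNA charging, by 0.60 (0.54), with 0.22 (0.18) on its brighter probe set. Nup133, a nuclear pore protein, differed by 0.998 (0.79) on 1 probe set and by -0.01 (-0.05) on the brighter one. Tbca, a tubulin cofactor, differed by 0.81 (1.09) on a dim probe set and by 0.04 to 0.10 on the other 3.

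Some dim probe sets had large differences with the covariate alone, or larger ones with it than without. One of 6 for Ptprd, a receptor phosphatase, read 7.26, 7.66, 5.56 and 7.85 with rosuvastatin and 6.42, 8.74, 6.84 and 6.42 with atorvastatin, which gives -0.02 without and 0.72 with the covariate. The lowest value belongs to the dimmest array and the highest to the brightest. Clns1a, at -0.10 without and 0.63 with it, and 4930523C07Rik, at 0.06 and 0.68, gave like values on their dimmest probe sets, and Oas2, an interferon-induced enzyme, went from 0.52 to 0.83. The brightest probe sets of Ptprd, Clns1a and 4930523C07Rik gave -0.34, 0.10 and 0.03 without and -0.18, 0.03 and 0.16 with the covariate.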

How the data were processed

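Per the labels, each of the 20 mice gave 1 left ventricle RNA and 1 array, so replicates are separate animals. The deposited intensity values are MAS5 signals, per the submitters' processing notes, with the version not given in the sources used here. The array annotation gives 1 symbol for 34945 of 45037 non-control probe sets, several for 932 and none for 9160. AFFX control probe sets (64) were left out, log2(signal + 16) was taken, and the brighter 50% of probe sets (22518, 11229 genes) were tested with limma 3.58.1 (R 4.3.3): lmFit and eBayes with a trend, 5 group means over all 20 arrays (15 residual degrees of freedom), Benjamini-Hochberg threshold 0.05, fitted without and with the log2 array median as covariate. A fold on the log2(signal + 16) scale understates dim genes, and array number limits precision. Array measures were compared by exact permutation of 4 against 4 mice. The fit was tested on simulated data. A listed gene is read by its brightest probe set with 1 symbol. Named genes are the 12 highest and 12 lowest differences among the 100 smallest p-values (8 and 8 with the covariate), up to 3 genes per list by p, up to 10 bright non-overlapping genes in each direction, and fixed statin, cardiac and clock genes. Members and lists were chosen with earlier results of these data known. Further list members, Arid5b and the untested Myl7, Sln, Mybphl, Bmp10, Myh4 and Adipoq were named after their values were seen. Alternatives covered centring, quantile normalization, pseudocounts of 1 and 64, filters, prior, weights, replicate block, probe sets per gene and arrays left out. Promoters (144 of 179 named genes matched) are the 250 bases before the start site in RefSeq's GRCm38.p6 table. Some items are not reported here.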

Additional observations from a re-analysis of the deposited data

Results flagged for a closer look

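Samples far from the other 3 of their drug were looked for in 244 groups of 4 by Dixon's test, which by chance picks out about 1 group in 20, and 11 were found. Of these, 5 belong to rosuvastatin mouse 3, the dimmest array. They are Enah at 9.57, Myl4 at 11.58 and 4930523C07Rik at 5.10 on the log2 scale, and the signals of the atrial genes Myl7 at 1259 and Sln at 298. Myl7 and Sln entered the search after their values were seen, and on the linear scale, so their flags add no weight to this count. Another 4 belong to atorvastatin mouse 2, the brightest array: 4930523C07Rik at 7.91, Icmt at 9.16, H2-K1 at 10.56, and 60.5% of probe sets above a signal of 100. The last are Mir22hg at 9.05 in atorvastatin mouse 3 and Arid5b, a DNA-binding regulator of fat and muscle genes, at 11.93 in atorvastatin mouse 1.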

How the results depend on the processing

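No probe set was called by limma in any of 36 other runs but 1. The replicate numbers with the array median as covariate (replicate block) called 1 probe set, Arid5b, lower in rosuvastatin hearts (with an adjusted limma p of 0.0427), where the block alone called 0. Same-numbered rosuvastatin and atorvastatin arrays correlated at -0.04, 0.59, 0.50 and -0.18, and differently numbered ones from -0.76 to 0.70. Array brightness was not taken out of these correlations, so they cannot show whether the numbers pair the mice. The cause was not tested. With the block alone 1776 probe sets had an unadjusted limma p under 0.05, beside 1236 without it, and 1159 with block and covariate. Leaving out single arrays called 0 to 0 probe sets. The count at an unadjusted p under 0.05 was 560 without rosuvastatin 3, 617 without atorvastatin 2, 1902 without rosuvastatin 4 and 2359 without atorvastatin 1. It was 558 with the 8 arrays alone (643 with the covariate), 706 without the 2 extreme arrays, 2619 of 45037 with no filter, 753 of 13511 for the brightest 30% and 641 of 11229 with 1 probe set per gene. Of those counted, the share higher in rosuvastatin hearts was 51.7%, but 75.4% after centring arrays on their median (which adds about 0.29 to every difference), 72.9% for the brightest 30%, 61.9% with 1 probe set per gene, 733 of 2619 with no filter, 40.2% without rosuvastatin 4 and 40.1% without atorvastatin 1. The log2 array median difference ran from -0.50 to -0.12 with single arrays left out. Of 44 list medians 33 kept their sign with the covariate and 11 in all runs, and of 116 probe sets 98 kept their direction in all runs. Centring alone turned Insig1 (0.13), Nsdhl (0.020), Sc5d (0.032), Slc27a1 (0.065) and Ttn (0.15), centring or single arrays left out Med1 (0.28 centred), array weights Nppa (-0.024), and centring or quantile normalization Nr1d1 (0.26, 0.015) and Sqle (0.080, 0.018). With the covariate, centring, the covariate without the extreme arrays, the covariate in 8 arrays, quantile normalization, weights, the block with the covariate, and the extreme arrays left out, Clns1a gave 0.63, 0.20, 0.55, 0.60, 0.059, 0.37, 0.70 and 0.82, and Ptprd 0.72, 0.27, 0.82, 0.75, 0.18, 0.62, 0.78 and 1.03. In that order but without quantile normalization, Myh6 gave 0.13, 0.19, 0.065, 0.15, 0.056, 0.029 and 0.17. Dbp gave 0.085 with the covariate, 0.15 centred, 0.054 with the covariate in 8 arrays and 0.040 without the extreme arrays. Pdk4 gave 0.020 centred, 0.033 and 0.0061 with the covariate without the extreme arrays and in 8 arrays, and 0.075 without the extreme arrays. Hmgcs1 gave -0.070, -0.010 and -0.045 in the last 3 of these. With single arrays left out, ranges were -0.17 to 0.55 for 4930523C07Rik, -0.46 to 0.45 for Clns1a, -0.43 to 0.10 for Dbp, -0.068 to 0.17 for Hmgcs1, -0.032 to 0.17 for Idi1, -0.072 to 0.054 for Med1, -0.33 to 0.11 for Myh6, -0.12 to 0.069 for Nr1d1, -0.28 to 0.52 for Ptprd and -0.0028 to 0.89 for Myl4. The causes were not tested. Dim probe sets, whose signal follows the array median, limit what these arrays can show.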
